A study of Homo sapiens with 12 samples.

Results

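MIR143 and MIR145 are neighbouring miRNA genes that share a host transcript, and their 4 mature products, hsa-miR-143-3p, hsa-miR-143-5p, hsa-miR-145-5p, and hsa-miR-145-3p, were followed here while A549 cells underwent EMT under TGF-β. The members were taken by name from a count table of 2588 mature miRNAs, 1417 of which had at least 1 count. They were chosen by the counts of miR-143-3p and miR-145-5p in these same libraries and by the ratio between them, so that the levels and differences of the members over time are a description and carry no test. The A549 line derives from a human lung adenocarcinoma and is epithelial, and the cytokine TGF-β moves it towards a mesenchymal state (epithelial-to-mesenchymal transition, EMT). Small RNA was sequenced from cells at 0 h, the start of the treatment, and after 24 and 96 h. There were 2 libraries per time point, and every library was run on the sequencer 2 times. By the dates in the sample titles, all first runs share a date. The second runs of both 24 h libraries have a later date and those of both 96 h libraries another, while the 0 h libraries have 1 of each. In the second runs, date and time point thus cannot be told apart between 24 and 96 h. All 6 libraries carry the same label for the induction of EMT, and no culture without TGF-β at 24 or 96 h was analysed here, so that the treatment and the time in culture cannot be told apart. By the methods of the study, serum was withdrawn before TGF-β1 was added, and the medium was then renewed on alternate days. The design text gives the samples as duplicates and does not say whether these were separate cultures, so the spread within a time point may be technical. The libraries held between 2335185 and 5971197 counts on mature miRNAs, and both 96 h libraries were deeper than the other 4.

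A miRNA gene is transcribed as a long primary transcript, and a hairpin is cut out of it and trimmed to a duplex, of which usually 1 strand is retained in the silencing complex while the other is degraded. The retained strand recognizes its target mRNAs mainly through the seed, bases 2 to 8 from its 5′ end. miR-143 and miR-145 are best known from smooth muscle and other mesenchymal cells, where they are abundant and act on regulators of the contractile state such as KLF4 and ELK1, and they are scarce in most epithelial cells. TGF-β is among the signals known to induce the locus in smooth muscle cells. In GRCh37, MIR143 lies on the plus strand of chromosome 5 from 148808481 to 148808586. It falls in an exon, from 148808446 to 148808602, of CARMN, a long non-coding RNA that extends from 148786252 to 148812398. MIR145 was placed by matching its hairpin to the genome and lies on the same strand from 148810209 to 148810296, in an intron of the 3 CARMN transcripts that span it, out of 25 annotated. The hairpins are 1622 bases apart, and CARMN is flanked by the protein-coding genes IL17B and CSNK1A1, both on the minus strand.

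The mature sequences are shown because they fix what a read of each member can be taken for. They are from RefSeq (GRCh38.p14) and are written 5′ to 3′ with the seed in capitals, first the 4 members and then both other human miRNAs of the table that share the seed of miR-143-3p.
miR-143-3p: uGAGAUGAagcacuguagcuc
miR-143-5p: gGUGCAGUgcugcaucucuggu
miR-145-5p: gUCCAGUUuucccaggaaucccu
miR-145-3p: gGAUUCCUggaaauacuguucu
miR-4770: uGAGAUGAcacuguagcu
miR-6088: aGAGAUGAagcgggggggcg
The 4 members have 4 different seeds, so that the strands of a hairpin do not share a seed and neither do the main products of both genes. miR-4770, from chromosome X, is the closest relative of miR-143-3p at an edit distance of 3 bases, and miR-6088, from chromosome 19, is 8 edits away. Both had 0 counts in all 6 libraries. Hence the seed of miR-143-3p was carried by miR-143-3p alone among the counted miRNAs that had a sequence, which were 2281 of the 2588 names. No other miRNA with a sequence shared the seed of miR-143-5p, miR-145-5p, or miR-145-3p, and their nearest relatives, miR-6501-5p, miR-4328, and miR-3167, were 7, 6, and 6 edits away. Each member was listed under a single precursor, so that none shares its reads with another entry of the table. miR-143-3p begins with U and the other members with G. Of the 434 tested miRNAs with a sequence, 39.9% begin with U and 6.91% with G.

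miR-143-3p, the strand through which miR-143 is best known to act on its targets, was the most abundant member in every library. The 0 h libraries had 17 and 15 of its reads, the 24 h libraries 265 and 324, and the 96 h libraries 1801 and 1634. After normalization by TMM, a method that scales libraries to their common miRNAs, its CPM (counts normalized to library size) were 6.23 and 4.48 at the start, 98.7 and 99.2 after 24 h, and 409 and 443 after 96 h. All libraries of a later time point lay above all libraries of an earlier one, with means of 5.35 ± 1.24, 98.9 ± 0.346, and 426 ± 24.4 CPM (SD, n = 2 libraries). In a bulk library, more cells that express the miRNA and more miRNA in each cell cannot be told apart.

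The place of miR-143-3p among the miRNAs of a library changed accordingly. By counts it held ranks 377 and 410 at the start, 149 and 148 after 24 h, and 86 and 85 after 96 h. Its neighbours in that order were miR-23c and miR-181b-3p in the first 0 h library, with 18 and 16 counts. At 96 h it stood between miR-151b, with 1873 counts, and miR-181d-5p, with 1791, in replicate 1, and between miR-452-5p, with 1663, and miR-181d-5p, with 1604, in replicate 2. The ranks next to it were thus within the counting error of its own count. Set against miR-21-5p, the most abundant miRNA of these cells, each 1e+06 reads of miR-21-5p went with 13.0 and 11.7 reads of miR-143-3p at the start, 183 and 173 after 24 h, and 460 and 550 after 96 h. For each 1e+06 reads of let-7i-5p, another abundant miRNA, the means were 84.6 ± 8.11, 1337 ± 130, and 5252 ± 896 reads (SD, n = 2 libraries). The order of the time points was the same on each of these scales, which do not use the TMM factors.

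**Figure D1:**
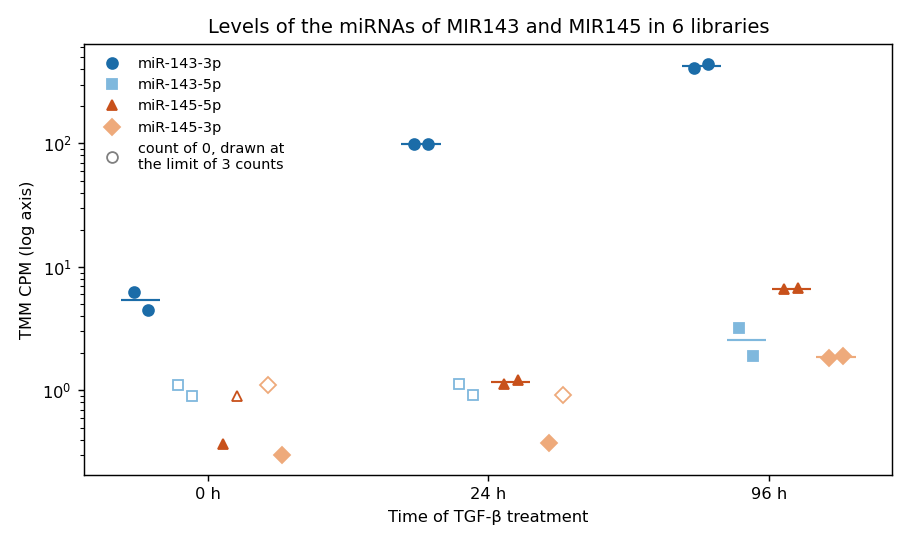
TMM-normalized CPM (log axis) of the 4 members in the libraries of 0, 24, and 96 h. Filled markers are single libraries, horizontal lines are means where both libraries had counts, and open markers are counts of 0 drawn at the limit of 3 counts. The means of miR-143-3p were 5.35, 98.9, and 426 CPM, and the highest value of any other member was 6.78 CPM.

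The time course of miR-143-3p was steeper before 24 h than after it on the log2 scale. The fold change fitted with edgeR was 18.6 between 0 and 24 h, 4.31 between 24 and 96 h, and 80 between 0 and 96 h. On the log2 scale, 66.7% of the difference between 0 and 96 h was present at 24 h, 0.176 per hour up to 24 h and 0.0293 per hour over the next 72 h. In CPM, 22.2% of the difference was present at 24 h. A doubling scale and a linear scale thus place the larger part of the difference in different intervals, and no time between 24 and 96 h was analysed here.

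In 5 of the 6 libraries, the reads of both sequencing runs could be separated. miR-143-3p had 16 reads in the deeper run of 0 h replicate 1 and 1 in the shallower run, 8.66 and 1.43 CPM of these runs. It had 11 and 4 reads in 0 h replicate 2, 7.21 and 3.39 CPM. At 24 h the runs gave 192 and 73 reads in replicate 1 and 195 and 129 in replicate 2, between 79.2 and 102.7 CPM. In 96 h replicate 1 they gave 280 and 285 CPM. The runs of the time points did not overlap, and each later time point was higher in both the deeper and the shallower run. The runs were told apart by depth and not by date.

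**Figure D2:**
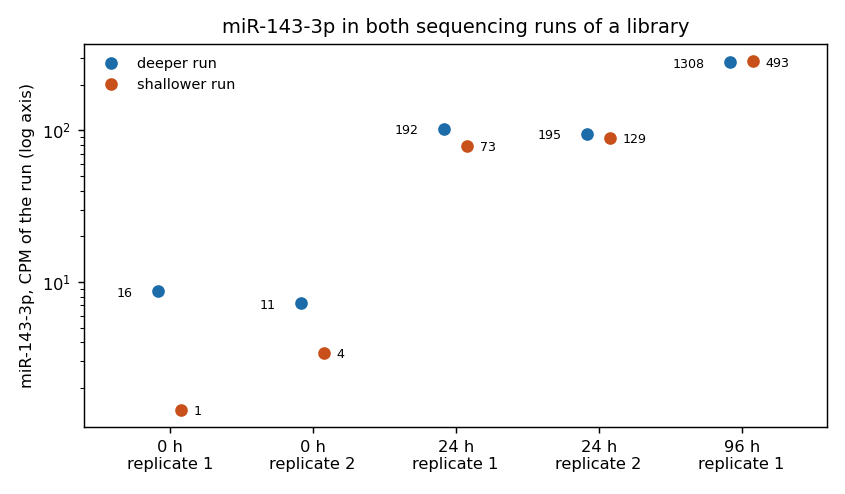
CPM of miR-143-3p in each sequencing run (log axis) of the 5 libraries in which runs could be separated, with the read count of the run beside each point. The runs at 0 h were between 1.43 and 8.66 CPM, those at 24 h between 79.2 and 102.7 CPM, and those at 96 h at 280 and 285 CPM.

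miR-145-5p, the main strand of the neighbouring hairpin and the miR-145 product known for repressing KLF4, was much less abundant. Its reads numbered 1 and 0 at the start, 3 and 4 after 24 h, and 29 and 25 after 96 h. These were 0.367 and 0 CPM, 1.12 and 1.22 CPM, and 6.58 and 6.78 CPM, with means of 0.183 ± 0.259, 1.17 ± 0.0758, and 6.68 ± 0.142 CPM (SD, n = 2 libraries). The time points did not overlap. At 96 h it ranked at 357 and 349, close to where miR-143-3p had stood at 0 h. The ratio of its summed counts, per normalized library size, was 7.15 at 24 h over 0 h (95% exact interval 0.918 to 322), 40.6 at 96 h over 0 h (6.98 to 1632), and 5.68 at 96 h over 24 h (2.58 to 14.8). The first of these values rests on 7 counts against 1. These intervals cover counting error only.

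The partner strands were seen mainly at 96 h. miR-143-5p had 0 counts in all 4 libraries of 0 and 24 h and 14 and 7 counts at 96 h, which were 3.18 and 1.90 CPM. With 3 counts put in place of 0 over both libraries of a time point, miR-143-5p was 5.26-fold higher at 96 h than at 0 h. Against 24 h it was 5.15-fold higher in the same way. These values treat the counts at 96 h as free of counting error, so they are not lower limits. miR-145-3p had 1 read in a single library of 0 h and of 24 h each, and 8 and 7 reads after 96 h, or 1.82 and 1.90 CPM. Its summed counts at 96 h were 11.3 times those at 0 h (95% exact interval 1.73 to 474) and 11.0 times those at 24 h (1.70 to 465), per normalized library size. The 96 h libraries were also the deepest, and 3 counts corresponded to between 0.681 and 1.12 CPM in the 6 libraries.

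All miRNAs were fitted in one model with edgeR, and 491 passed its expression filter, among them miR-143-3p and miR-145-5p. miR-145-5p passed only through its counts at 96 h, and miR-143-5p and miR-145-3p did not pass. Calls needed an adjusted p (Benjamini-Hochberg) under 0.05 together with a log2-fold change above 1 or below −1. For miR-143-3p the log2-fold change was 4.22 (standard error 0.22) at 24 h and 6.32 (0.22) at 96 h, both relative to 0 h, and 2.11 (0.16) between 24 and 96 h. For miR-145-5p the corresponding values were 2.58 (1.17), 5.05 (0.84), and 2.47 (0.59). The values of miR-145-5p against 0 h rest on a single read: without 0 h replicate 1 they were 5.08 at 24 h and 7.56 at 96 h, and without 0 h replicate 2 they were 1.60 and 4.06. At 24 h, miR-143-3p was the 1 member called higher, where 1.22% of the tested miRNAs were. Both tested members were called higher at 96 h, where 12.6% were relative to 0 h and 3.67% relative to 24 h. Since the members were chosen by these values, nothing is read from their counts. The median log2-fold changes of all tested miRNAs were −0.00, −0.10, and −0.05.

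**Figure D3:**
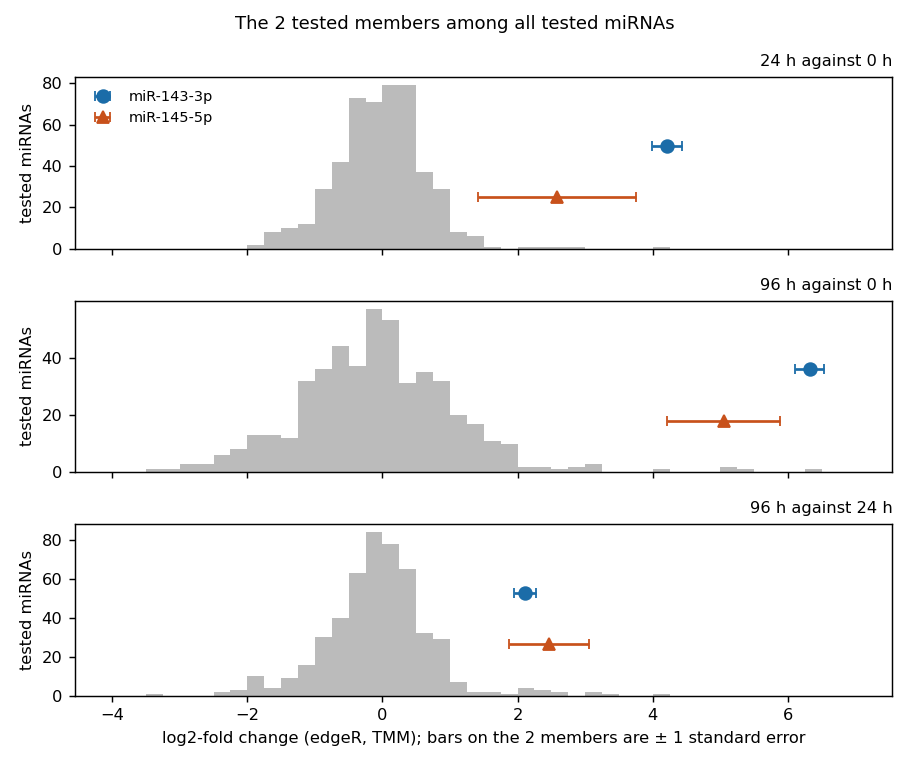
Histograms of the log2-fold changes of the 491 tested miRNAs in the 3 comparisons of time points, with miR-143-3p (circle) and miR-145-5p (triangle) drawn above them at arbitrary heights with ± 1 standard error. miR-143-3p lies at 4.22, 6.32, and 2.11, and the bars of miR-145-5p are widest against 0 h, where it had 1 count.

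Since both hairpins can be cut from the same CARMN transcripts, their main products were compared within each library. The counts of miR-143-3p per count of miR-145-5p were 88.3 and 81 after 24 h and 62.1 and 65.4 after 96 h. In 0 h replicate 1 the ratio was 17, from 17 counts against 1, and 0 h replicate 2 had 15 counts against 0. Summed over the libraries of a time point, the ratio was 32 at 0 h (95% exact interval 5.35 to 1303), 84.1 at 24 h (40.6 to 210), and 63.6 at 96 h (48.6 to 84.9). The intervals of the 3 time points overlapped, and over all libraries there were 4056 counts of miR-143-3p and 62 of miR-145-5p, a ratio of 65.4. At the ratio of 96 h, 9.26 counts of miR-145-5p would go with the miR-143-3p counts of 24 h, where 7 were found, and 0.503 with those of 0 h, where 1 was found. At 0 h the ratio rests on that 1 count, and the intervals cover counting error only. The ratio is one of reads and not of molecules, since adapters are not ligated equally well to all small RNAs.

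The strands of each hairpin were counted in the same way. At 96 h, miR-143-3p held 99.4% of the reads of both strands of MIR143 (95% exact interval 99.07 to 99.62; 99.2% and 99.6% in the single libraries). At 24 h it held 589 of 589 reads (95% exact interval 99.38 to 100), and at 0 h 32 of 32 (89.1 to 100). The intervals of the time points overlapped. At the share of 96 h, 3.60 reads of miR-143-5p would go with the 24 h counts and 0.196 with the 0 h counts, and 0 were found at both times. MIR145 was less one-sided. miR-145-5p held 78.3% of its reads at 96 h (66.7 to 87.3), with 78.4% and 78.1% in the single libraries, and it held 7 of 8 reads at 24 h and 1 of 2 at 0 h.

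**Figure D4:**
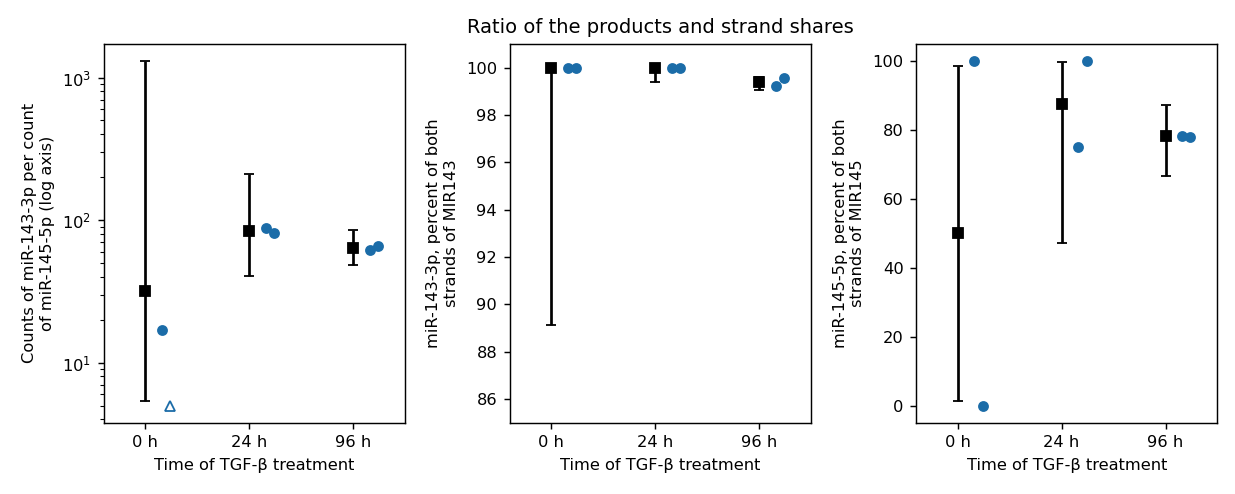
Left, counts of miR-143-3p per count of miR-145-5p (log axis), and middle and right, the percent of the main strand among the reads of MIR143 and MIR145, by time point. The middle axis starts at 85%. Black squares are sums over both libraries with 95% exact intervals, circles are single libraries, and the open triangle is the library with 0 counts of miR-145-5p, drawn as if it had 3. The intervals are widest at 0 h, where there were 32 counts of miR-143-3p and 1 of miR-145-5p.

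Among the 204 precursors with both strands in the table and at least 50 counts at 96 h, the main strand held a median of 98.3% of the reads, with quartiles of 89.1% and 99.7%. In that order MIR143 ranked at 72 and MIR145 at 170, so that MIR143 lay between the median and the upper quartile and MIR145 below the lower quartile. The 3p strand was the main strand in 104 of the 204 pairs, as in MIR143. Strands were paired by name and not by precursor. A name with several precursors was thus pooled, and the nearly identical 3p counts of miR-365a and miR-365b entered separately. All 4 products together had 34 counts at 0 h, 597 at 24 h, and 3525 at 96 h, or 5.69 ± 1.29, 100.3 ± 0.159, and 437 ± 23.7 CPM (SD, n = 2 libraries). miR-143-3p made up 94.1%, 98.7%, and 97.4% of these counts.

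Most other tested miRNAs of chromosome 5 were not called at 96 h, which also holds for all 491 tested miRNAs, of which 127 were called. Outside the locus, 19 tested miRNAs were matched to chromosome 5 by name. Of these, miR-548f-3p, miR-103a-3p, and miR-218-5p also have precursors elsewhere, so that their reads need not come from this chromosome. The log2-fold changes of the 19 at 96 h ranged from −2.13 to 1.28 with a median of −0.92, below the −0.10 of all tested miRNAs. By edgeR's quasi-likelihood test, 1 was called higher, miR-582-3p at 1.28, and 4 were called lower, miR-1303 at −2.13, miR-3912-3p at −2.07, miR-584-5p at −1.29, and miR-2277-5p at −1.01, where 12.6% of all tested miRNAs were called higher and 13.2% lower. These were named after their values were seen. miR-1303, miR-3912-3p, and miR-584-5p were called lower at 96 h in all 16 alternative analyses, whereas miR-582-3p was called in 12 of 16 and miR-2277-5p in 4 of 15. miR-582-3p was at 0.94 and below the fold threshold without 0 h replicate 2, and miR-2277-5p lost its call without any 1 of the 6 libraries. The nearest on the side of IL17B was miR-584-5p, whose gene starts 367 kb from MIR143 on the minus strand. Its reads numbered 47 and 54 at the start, 19 and 25 after 24 h, and 31 and 24 after 96 h, or 16.7 ± 0.782, 7.36 ± 0.408, and 6.77 ± 0.371 CPM (SD, n = 2 libraries). The 0 h libraries lay above all later ones, with an adjusted p of 0.00656 at 96 h (edgeR, quasi-likelihood test). On the side of CSNK1A1, 304 kb away, lies the gene of miR-378a-3p and miR-378a-5p. miR-378a-3p was at 1624 ± 201 CPM at 0 h and 1065 ± 15.7 at 96 h and miR-378a-5p at 10.1 ± 1.23 and 4.99 ± 1.30 (SD, n = 2 libraries). Their log2-fold changes were −0.61 (adjusted p = 0.00667) and −0.999 (adjusted p = 0.0499) by edgeR's quasi-likelihood test. Both were thus lower at 96 h in this fit, but neither passed the fold threshold. The adjusted p of miR-378a-5p was at the edge of 0.05, and its values in the alternative analyses were not examined.

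**Figure D5:**
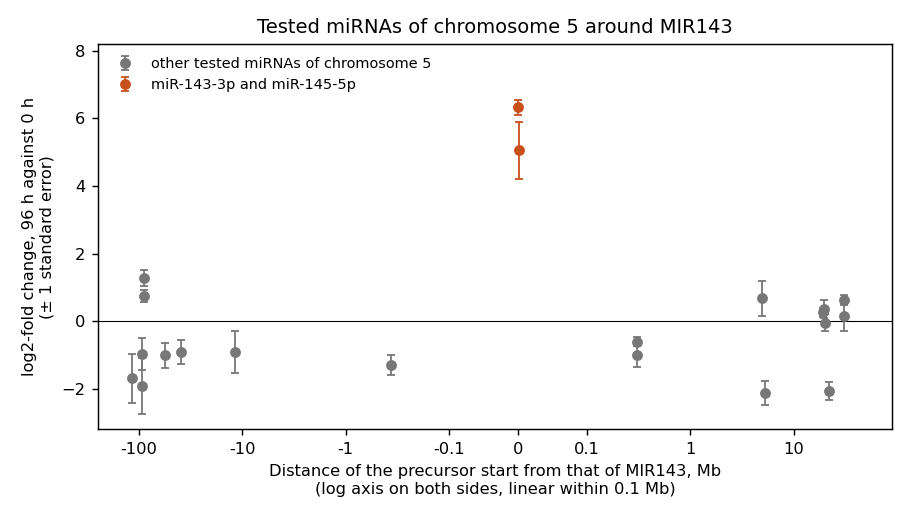
log2-fold change at 96 h against 0 h, with ± 1 standard error, of the 21 tested miRNAs of chromosome 5 against the distance of their precursor from MIR143 (Mb, log axis on both sides and linear within 0.1 Mb). miR-143-3p and miR-145-5p stand at 6.32 and 5.05, and the other 19 miRNAs, of which miR-548f-3p, miR-103a-3p, and miR-218-5p also have precursors elsewhere, lie between −2.13 and 1.28.

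By Pearson correlation of log2 CPM over the 6 libraries, the tested miRNAs most like miR-143-3p were miR-181a-2-3p (r = 0.997), miR-136-3p (0.991), miR-365a-3p and miR-365b-3p (both 0.988), and miR-181a-3p (0.988). These coefficients describe 6 libraries of 3 time points that share their depth and treatment, and miRNAs with any steady difference between the time points score high. The size of the differences was far smaller than that of miR-143-3p: miR-181a-2-3p, the strand opposite miR-181a-5p, was at 117 CPM in both 0 h libraries, 306 and 318 after 24 h, and 556 and 616 after 96 h, a log2-fold change of 2.32 at 96 h. For miR-136-3p, a product of the imprinted cluster on chromosome 14, it was 1.85. miR-365a-3p and miR-365b-3p had nearly the same counts in every library and their reads cannot be told apart, with a log2-fold change of 1.63. miR-145-5p was at place 35 in this order, with r = 0.942.

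A list of 18 miRNAs linked to TGF-β signalling or EMT gives the pathway around the locus, and 14 of them were tested. By the quasi-likelihood test of edgeR, none was called at 24 h, where 17 of all 491 tested miRNAs were. There 5 of the list had an unadjusted p under 0.05, and DESeq2 and limma also called 0. At 96 h relative to 0 h, 1 was called higher, where 12.6% of all tested miRNAs were, and 9 had an unadjusted p under 0.05. Nothing is read from these counts of calls. Others missed only the fold threshold at 96 h. These were miR-21-5p, miR-181a-5p, miR-181b-5p, miR-424-5p, miR-200a-3p, miR-29b-3p, and miR-29c-3p, with adjusted p between 0.0021 and 0.0305 (edgeR). At 96 h DESeq2 called 3 higher, miR-200b-3p, miR-21-5p, and miR-181a-5p, and limma on the authors' normalized values called 3 lower, miR-29a-3p, miR-29b-3p, and miR-29c-3p. The median log2-fold change of the list at 96 h was 0.30, against −0.10 for all tested miRNAs. The 1 called by edgeR was miR-200b-3p, at 1.60 (standard error 0.20, adjusted p = 0.000257, edgeR). Its family represses ZEB1 and ZEB2 and maintains the epithelial state. The direction of miR-200b-3p was opposite to the loss of this family known from EMT in other cells. The other family members of the list were at 0.81 (miR-200a-3p), 0.20 (miR-429), −0.03 (miR-200c-3p), and −1.14 (miR-141-3p), and none of these was called. Scaled to total counts, the log2-fold change of miR-200b-3p was 0.87 and below the fold threshold. miR-21-5p, an abundant miRNA whose maturation TGF-β is known to promote, reached 0.97 and miR-181a-5p also 0.97, both below the fold threshold. Between 24 and 96 h, 1 member of the list was called lower, miR-29b-3p, which targets collagen mRNAs, at −1.29, where 2.24% of all tested miRNAs were called lower. Its adjusted p was 0.0245 (edgeR), and it was 0.305 without 24 h replicate 1 and 0.216 and 0.131 without 96 h replicate 1 and 2, respectively.

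miRNAs that mark other cell types were counted in the same libraries. Of 6 fibroblast miRNAs none passed the expression filter, miR-214-3p and miR-214-5p were at 0 in all libraries, and the summed level of the list was 2.09 to 4.03 CPM at 0 h, 0.745 to 7.96 at 24 h, and 4.34 to 6.58 at 96 h. miR-199a-3p and miR-199b-3p, with identical counts, made up most of that sum. Their reads cannot be told apart, so the sum may count the same reads more than once. Of 7 miRNAs of skeletal and heart muscle only miR-499a-5p was tested, and it was not called. miR-133a-3p, which marks muscle together with miR-1-3p, had 1 read in all, miR-133b and miR-208b-3p had none, and the summed level of the list was 4.48 to 4.76, 4.84 to 5.20, and 2.98 to 7.26 CPM at the 3 time points. Of 6 blood miRNAs none was tested, miR-223-3p was at 0 in all libraries, and the list summed to 4.78 to 5.50 CPM at 0 h, 2.45 to 2.61 at 24 h, and 1.13 to 1.36 at 96 h. The endothelial pair miR-126-3p and miR-126-5p was the exception among these lists, with a summed level of 404 to 461, 457 to 516, and 456 to 495 CPM at the 3 time points. Neither was called by edgeR, DESeq2, or limma in any comparison, and 1 of them had an unadjusted p under 0.05 at 24 h. At 96 h the summed levels of the fibroblast and muscle lists were below 8 CPM. The muscle list holds no miRNA that marks smooth muscle, so its level cannot show whether such cells were present. The part of other cell types in the levels of the locus was not tested. Of 4 miRNAs listed for the epithelial A549 cells themselves, only miR-21-5p, the most abundant miRNA, was at a high level. The epithelial miR-200c-3p was low at 18.0 ± 6.10 CPM at 0 h and 17.5 ± 0.625 at 96 h (SD, n = 2 libraries). At the same times miR-141-3p was at 3.59 ± 0.412 and 1.65 ± 0.732 CPM, and miR-205-5p had between 0 and 3 counts in a library. By these levels, the list as a whole does not mark this line. None of the 3 tested miRNAs of this list, which includes miR-141-3p, was called in any comparison by edgeR, with 1 unadjusted p under 0.05 at 96 h relative to 0 h, where DESeq2 called 1 of the 3. There miR-21-5p missed only the fold threshold, at 0.97 (adjusted p = 0.0021, edgeR).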

How the data were processed

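Small RNA libraries of A549 cells (Illumina small RNA kit) were sequenced in 2 runs each, and miRNAs were counted by the authors with miRDeep2. The authors deposited raw counts per mature miRNA and precursor, with both runs of a library summed, and a second table of normalized values (a signal: the CPM of both runs added up). Per the labels the genome build was hg19. The miRNA reference set and mapper settings are not given in the sources used here. A single column of the normalized values repeats another (1 not used), so that 96 h replicate 2 has no normalized value; in the other 5 libraries, the runs were separated by finding the whole reads behind the values, which came out whole within 0.01 for all 702 to 803 entries with low counts per library.

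For each mature miRNA, the precursor entry with the highest total was used, out of 2822 entries. The fit was made with edgeR 4.0.16 under R 4.3.3 (TMM, filterByExpr with a minimum count of 10, quasi-likelihood test with Benjamini-Hochberg adjustment), in one model of all 6 libraries with the time point as its term. The 491 tested miRNAs held 99.96% of the reads. Calls used the thresholds of the study, an adjusted p under 0.05 with a log2-fold change above 1 in size. The standard error is the absolute log2-fold change divided by the square root of F. Shares and ratios of counts have exact (Clopper-Pearson) 95% intervals. In fold values and on log axes, 3 counts stand in for a count of 0. The intervals cover counting error alone, and without molecular identifiers PCR copies of a molecule are counted as well. The code of the fit was tested on simulated counts with a set spread and a set size of change. Such a test does not show how the fit performs at the spread of these libraries. The chi-square per degree of freedom between the libraries of a time point was 38.9 to 77.9, so none was a copy of another.

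The text names the 4 members, miRNAs with a member's seed, the fixed lists, the 5 miRNAs most correlated with miR-143-3p, and those next to it in rank; the neighbours on chromosome 5 were added after values were seen. The members and lists were chosen with earlier results of these data known. Alternatives were DESeq2's size factors, total counts with and without miR-21-5p, DESeq2 1.42.0, limma-trend with limma 3.58.1 on the log2 of the normalized value plus 1, other expression filters, fewer libraries, a replicate block, and all precursor entries. Positions are from GENCODE on GRCh37, and mature sequences from RefSeq. Ratios and figures were made in Python 3.11.15 with scipy 1.17.1 and matplotlib 3.10.9. Libraries were grouped by their labels.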

Additional observations from a re-analysis of the deposited data

Results flagged for a closer look

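Of the 491 tested miRNAs, 29 were called between 24 and 96 h, both tested members included. Outside the locus, only some miRNAs of chromosome 5 and of the TGF-β list, picked by hand, were looked at here. For 2 of these, the effects at 24 and 96 h against the shared 0 h libraries differed. That was judged by the direct comparison of 96 h with 24 h (edgeR, quasi-likelihood test, Benjamini-Hochberg adjustment). For miR-29b-3p the log2-fold change between 24 and 96 h was −1.29 (adjusted p = 0.0245), with 0.30 at 24 h and −0.99 at 96 h relative to 0 h, and was called in 12 of 16 alternative analyses. For miR-3912-3p it was −1.07 (adjusted p = 0.0288), with 55.0 ± 11.9, 27.4 ± 0.223, and 13.1 ± 3.74 CPM at 0, 24, and 96 h (SD, n = 2 libraries), and it was also called in 12 of 16. It lost its call without either library of 24 h or of 96 h, where the adjusted p was between 0.0718 and 0.242.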

How the results depend on the processing

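Every alternative gave log2-fold changes above 0 for both tested members in all 3 comparisons. The values of miR-143-3p moved most against the main analysis with total counts and by limma, which also uses other values and lacks 96 h replicate 2. With total counts, without miR-21-5p in those totals, and by limma on the authors' normalized values, they were 5.601, 5.97, and 5.64 at 96 h relative to 0 h and 1.67, 1.93, and 1.62 relative to 24 h. For miR-145-5p, total counts gave 4.39 at 96 h against 0 h and 2.04 against 24 h, totals without miR-21-5p 2.30 and DESeq2 2.57 against 24 h, and limma 0.88 at 24 h, 2.94 at 96 h, and 2.06 between them. Without single libraries the 3 values were 3.99 to 4.49, 6.10 to 6.60, and 2.10 to 2.22 for miR-143-3p and 1.60 to 5.08, 4.06 to 7.56, and 2.42 to 2.62 for miR-145-5p. With a mean of at least 10 CPM, miR-145-5p was not tested, nor at 24 h when only the libraries compared were fitted.

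With total counts, 33, 215, and 72 miRNAs were called in place of 17, 127, and 29 at 24 h, at 96 h, and between them. Of the 215, 23 were higher and 192 lower, against 62 and 65, and the median over all tested miRNAs was −0.83 in place of −0.10 (log2). Totals without miR-21-5p gave 26 calls at 24 h and, at 96 h against 0 h, 39 higher and 122 lower. Between 24 and 96 h there were 46 calls without an expression filter, 17 with a mean of at least 10 CPM, 44 with only the libraries compared, and 10 by limma. Without single libraries the calls ranged from 4 to 36, from 93 to 142, and from 9 to 46. At 24 h, omitting 0 h replicate 1 gave 36, and omitting 24 h replicate 1 or 2 gave 5 or 4. Between 24 and 96 h, omitting 24 h replicate 1 gave 9, and omitting 96 h replicate 1 or 2 gave 11 or 16, and omitting 0 h replicate 1 or 2, which share the estimate of the spread, gave 46 or 44.

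A fit with the replicate number as a replicate block gave 20, 124, and 41 calls and 6.32 for miR-143-3p at 96 h against 0 h. The deviations of same-numbered libraries from their group means had correlations of −0.30, 0.31, and −0.18. With 2 libraries per time point the deviations mirror each other, so differently numbered libraries had 0.30, −0.31, and 0.18. The printed numbers thus did not pair the libraries in a steady direction. Whether libraries of different time points share a source of variation was not tested.

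By the authors' normalized values, the ratio of miR-143-3p to miR-145-5p was 97.5 at 24 h and 51.6 at 96 h, where 1 library has a value, and the share of miR-145-5p at 96 h was 77.5%. As a mean of log2 ratios of single libraries with 0.5 added to each count, the ratio at 24 h was 74.0 and the shares were 99.8% for miR-143-3p at 24 h and 77.5% for miR-145-5p at 96 h. Leaving out a library gave ratios of 81 to 88.3 at 24 h and 62.1 to 65.4 at 96 h. At 0 h, with 1 count of miR-145-5p, no such alternative was run. Depth limits every statement on miR-143-5p, miR-145-5p, and miR-145-3p before 96 h.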
